A study of Mus musculus with 4 samples.

Results

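The genes of glycolysis, lactate handling and glycogen were followed in mTFP-positive cells sorted from control and *Rax* iCKO mouse retinas. The set was a fixed list of 33 gene symbols, from the glucose transporter *Slc2a1* to the phosphoglucomutases, and all 33 were found among the 24322 symbols of the RNA-seq tables. All 33 had a mean of at least 1 FPKM (the authors' read-based level, divided by the length of a gene's exons and by the mapped fragments of the library), which is the level required for the test between genotypes. Every mouse carried the *Rlbp1-CreERT2* driver and the *R26-CAG-LoxP-mTFP1* reporter. The controls, numbers 7984 and 3911, were *Rax* flox/WT, and the *Rax* iCKO mice, numbers 7983 and 3914, were *Rax* flox/flox. The strain is given as 129S6. Tamoxifen was given at P4 to all 4 mice, the retinas were taken at P14, and each mouse gave 1 library. Controls thus carried the Cre driver, the reporter, the drug and 1 floxed allele as well, and the comparison is between mice with 1 floxed *Rax* allele and mice with 2, and Cre acts on them only in cells where it is active. *Rlbp1* is active in Müller glial cells and also in the retinal pigment epithelium, so the promoter does not single out Müller glia by itself.

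Glycolysis splits glucose into pyruvate in the cytosol, and lactate dehydrogenase turns pyruvate into lactate, which leaves or enters cells through monocarboxylate transporters that need the chaperone basigin. The retina is known for making lactate even when oxygen is plentiful, and Müller glial cells, which span its whole depth, take up glucose, exchange lactate with photoreceptors and hold the glycogen store of the tissue. Most steps are served by several isoenzymes encoded by different genes, and which of them a cell uses differs between tissues.

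*Rax*, the targeted gene, had 189 FPKM in control mouse 7984 and 181 in 3911, against 111 in *Rax* iCKO mouse 7983 and 98.4 in 3914. The *Rax* iCKO values were the lower ones, at a ratio of means of 0.566, and *Rax* RNA was still present. The log2 fold change was -0.82 (standard error 0.21; limma adjusted p = 1.0, and 0.0223 when the run of mouse numbers was blocked). Estimated from the FPKM that 1 read is worth, the libraries held about 12710000 mapped reads for mouse 7984 and between 9270000 and 9430000 for the other 3. The runs of mouse numbers, 7983 with 7984 and 3911 with 3914, each hold 1 mouse of each genotype. *Xist*, the RNA of the silenced X chromosome, had 24.5 and 21.2 FPKM in the controls and 0.0119 and 0.00605 FPKM in *Rax* iCKO, and *Ddx3y*, *Eif2s3y* and *Uty* of the Y chromosome were above 0 in *Rax* iCKO mouse 7983 alone. *Xist* thus separated the same mice as genotype did, so every comparison by genotype is also one by *Xist* level. This design cannot tell the 2 apart for any gene. Of the members, *Pgk1* and *Pdk3* lie on the X chromosome. The part of sex chromosomes in their values, and in those of the other members, was not tested.

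The pathway was strongly expressed in all 4 libraries. The FPKM of the 33 genes summed to 18649 in control mouse 7984 and 19731 in 3911, against 15259 in *Rax* iCKO mouse 7983 and 16720 in 3914. This was 3.52% and 3.20% of all FPKM in the controls and 3.10% and 3.05% in *Rax* iCKO, so both *Rax* iCKO libraries were lower on either scale. Without *Eno1* the sum was 13067 FPKM in control mouse 7984 and 14568 in 3911, against 11540 in *Rax* iCKO mouse 7983 and 12842 in 3914. The percent of all FPKM was not taken without it. *Eno1*, which encodes the enolase that makes phosphoenolpyruvate, held 29.9% and 26.2% of the full sum in these controls and 24.4% and 23.2% in *Rax* iCKO. It ranked first and number 2 among all genes in the controls, and number 2 and number 5 in *Rax* iCKO mice 7983 and 3914. FPKM divides by gene length, so levels of different genes can be set side by side. By mean FPKM, *Eno1* was followed by *Gapdh* (2421), *Aldoa* (1791), *Bsg* (1549), *Tpi1* (1245), *Ldha* (1201) and *Pkm* (1176). At the other end 8 members were under 20 FPKM in each library, and *Hk2* was the lowest of all at a mean of 1.16 FPKM.

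**Figure D1:**
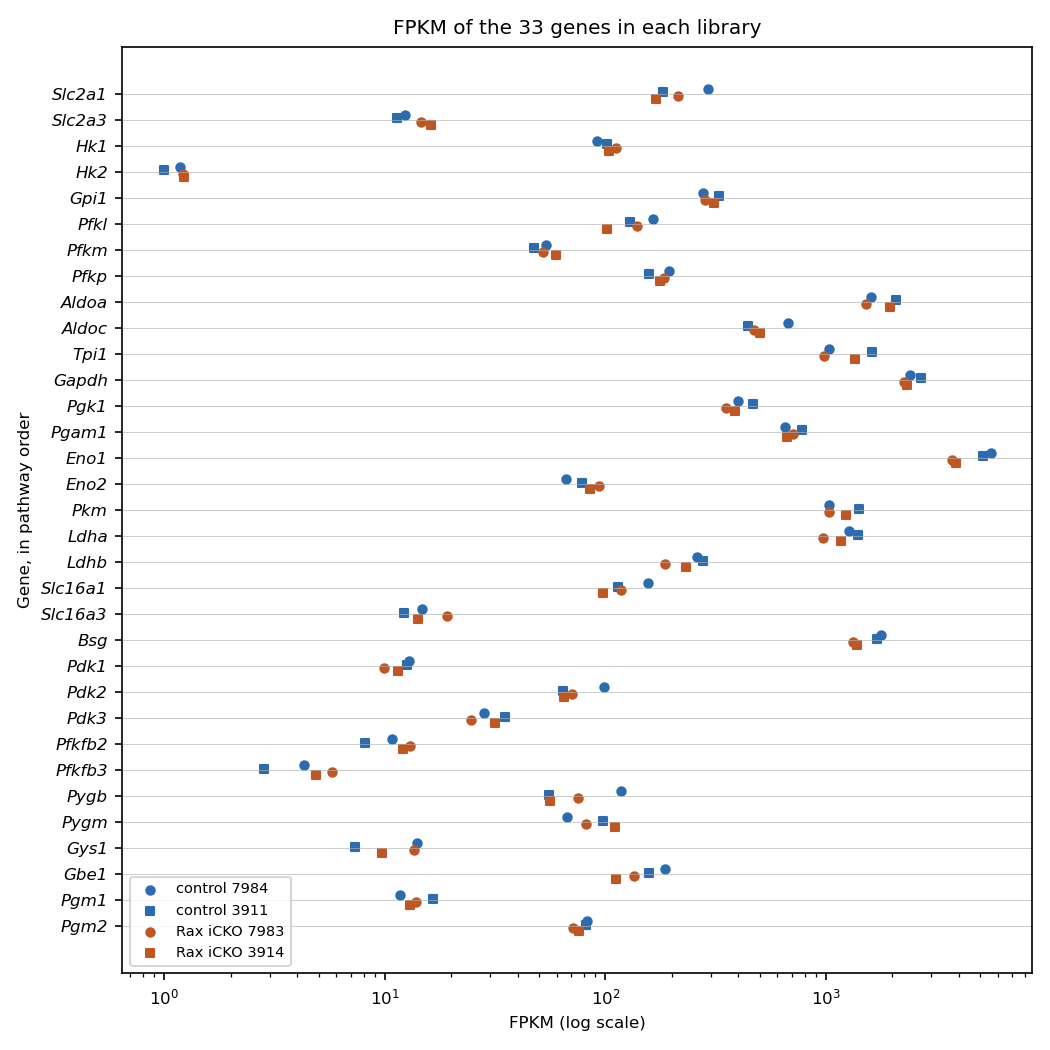
FPKM of each of the 33 genes on a log scale, in pathway order, with 1 point per library (blue for control, orange for *Rax* iCKO, circles for mice 7984 and 7983, squares for mice 3911 and 3914). The levels run from about 1 FPKM for *Hk2* to 5582 FPKM for *Eno1*, and the distance between libraries is small beside the distance between genes.

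None of the 33 members passed the test between genotypes. With limma on log2(FPKM + 1), 0 members had an adjusted p under 0.05, where 0.0243% of the 12363 tested genes did (0.00809% higher and 0.0162% lower in *Rax* iCKO), and 0 had an unadjusted p under 0.05, where 2.86% of all tested genes did. The log2 fold changes lay between -0.50 for *Eno1* and 0.48 for *Pfkfb3*, with standard errors between 0.20 and 0.48. All 33 of the 95% intervals held 0, and 22 of them lay within -1 and 1 on the log2(FPKM + 1) scale, on which a 2-fold change of a gene of low FPKM comes out below 1 in size. The median was -0.16, against -0.0044 over all tested genes, and 22 members were below 0 and 11 above. Within the runs of mouse numbers the median over the members was -0.09 for mouse 7983 minus 7984 and -0.10 for 3914 minus 3911.

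Both *Rax* iCKO libraries were below both controls for 9 members (27.3%), where 14.1% of all tested genes did so. These were *Gapdh*, *Pgk1*, *Eno1*, *Ldha*, *Ldhb*, *Bsg*, *Pdk1*, *Gbe1* and *Pgm2*. Both lay above both controls for 6 members (18.2%, against 15.4% of all tested genes), namely *Slc2a3*, *Hk1*, *Hk2*, *Eno2*, *Pfkfb2* and *Pfkfb3*. The counts depend on the scaling of the libraries: after quantile normalization 2 members, *Ldhb* and *Pdk1*, were lower in both *Rax* iCKO libraries (14.4% of all tested genes) and 11 were higher (16.1%), with *Gapdh* moving from the first group to the second and a median over the members of 0.08. The direction of the pathway as a whole thus depended on the scaling.

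**Figure D2:**
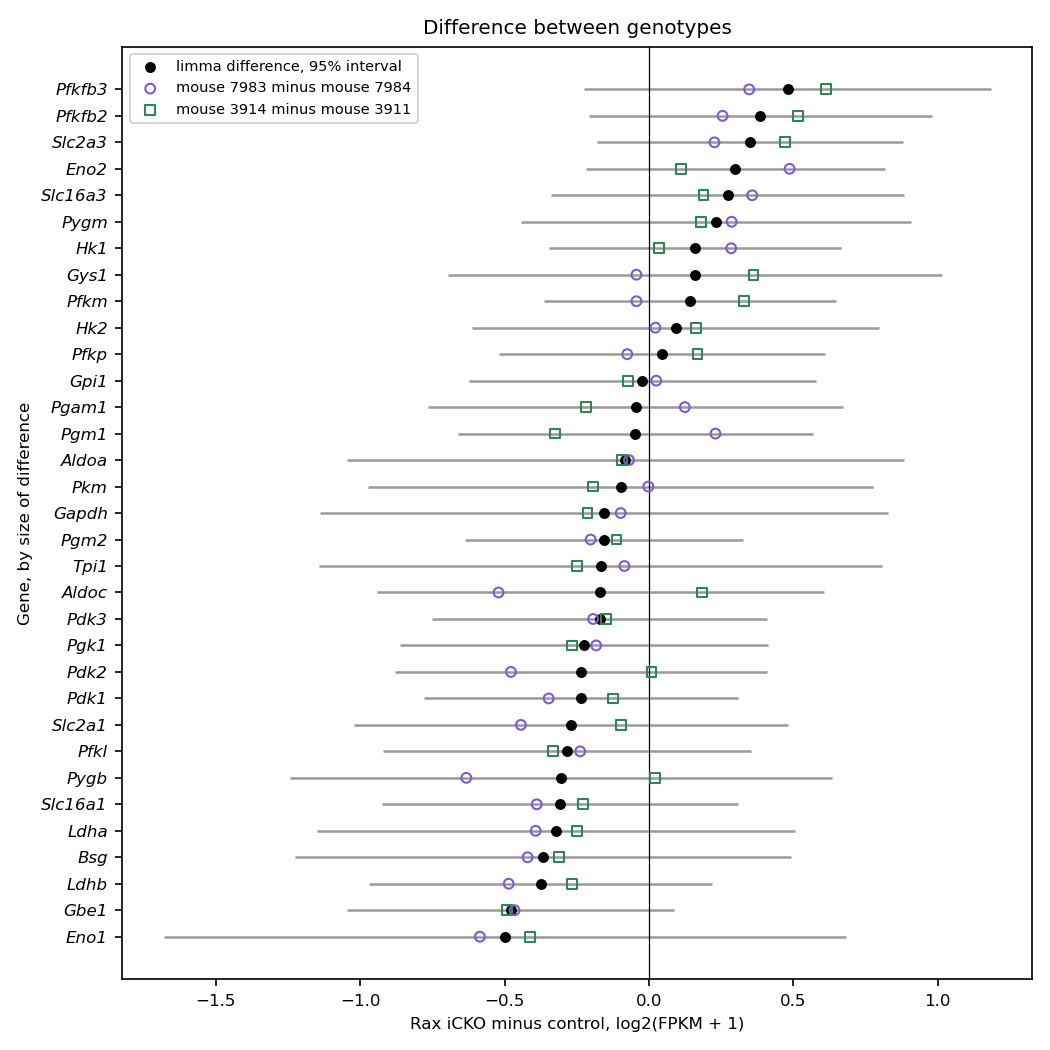
Difference between *Rax* iCKO and control for each of the 33 genes in log2(FPKM + 1), sorted by size, as deposited and without further scaling. Black points with grey bars are the limma difference and its 95% interval, open circles the difference between mice 7983 and 7984, and open squares that between mice 3914 and 3911. All 33 bars cross 0, and after quantile normalization 7 of the points, *Gapdh* among them, change sign.

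Glucose enters through *Slc2a1*, the general glucose transporter GLUT1, and *Slc2a3*, the high-affinity transporter GLUT3 of neurons. In the order control mice 7984 and 3911, then *Rax* iCKO mice 7983 and 3914, which holds for every row of 4 values in the text, *Slc2a1* was at 290.4, 181, 213 and 169 FPKM. The groups overlapped, and the lower pair was 3911 and 3914 rather than a genotype. *Slc2a3* was at 12.3, 11.3, 14.6 and 16.1 FPKM, higher in both *Rax* iCKO libraries at a ratio of 1.30 (limma log2 fold change 0.35, standard error 0.22, adjusted p = 1.0). *Slc2a1* carried 95.9%, 94.1%, 93.6% and 91.3% of the FPKM of this pair. Its share was lower in both *Rax* iCKO libraries, with a difference in means of -2.56 percentage points (exact permutation test, two-sided, p = 0.333, the smallest that 2 against 2 mice allow).

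Hexokinase traps glucose in the cell as glucose 6-phosphate. *Hk1*, the form of brain and retina, was at 91.4, 101, 111 and 104 FPKM and held between 98.7% and 99.0% of the FPKM of the pair in each library. With *Hkdc1* and *Hk3*, further hexokinase genes, counted as well, its share was 61.8%, 71.9%, 78.3% and 76.3%, higher in both *Rax* iCKO libraries (exact permutation test, two-sided, p = 0.333), and nearly all of the added FPKM was *Hkdc1*. *Hk2*, a form found in muscle and in many tumours, was at 1.18, 0.993, 1.22 and 1.23 FPKM, near the level required for the test. Both *Rax* iCKO libraries were above both controls for each gene, with log2 fold changes of 0.16 for *Hk1* (standard error 0.21) and 0.09 for *Hk2* (standard error 0.29). Leaving out control mouse 7984 gave 0.085 for *Hk1* and 0.16 for *Hk2*, and leaving out control mouse 3911 gave 0.027 for *Hk2*. *Gpi1*, the isomerase that follows, was between 278 and 326 FPKM with no order by genotype.

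Phosphofructokinase, the committed step, was divided among 3 genes. *Pfkp* (the platelet form) was at 193, 157, 183 and 176 FPKM, *Pfkl* (the liver form) at 164, 129, 139 and 102 FPKM, and *Pfkm* (the muscle form) at 53.7, 47.2, 52.1 and 59.5 FPKM. *Pfkp* was the highest of the 3 in each library, by between 1.18 and 1.73 times the next. Its share was 47.1% in both controls and 49.0% and 52.2% in *Rax* iCKO, 3.51 percentage points higher (exact permutation test, two-sided, p = 0.333). None of the 3 levels separated the genotypes. The bifunctional enzymes that set its activator, fructose 2,6-bisphosphate, were much lower. *Pfkfb2* was at 10.7, 8.13, 13 and 12.1 FPKM and *Pfkfb3* at 4.28, 2.83, 5.72 and 4.85 FPKM, both higher in each *Rax* iCKO library than in either control. The ratio of means was 1.33 for *Pfkfb2* (9.43 ± 1.83 in control and 12.5 ± 0.656 in *Rax* iCKO, SD, n = 2) and 1.49 for *Pfkfb3* (3.56 ± 1.03 and 5.29 ± 0.615, SD, n = 2). *Pfkfb3* had the largest log2 fold change above 0 among the 33 as deposited (0.48, 95% interval -0.22 to 1.18), with an adjusted p of 1.0 from limma. Leaving out control mouse 3911 gave 0.25 for *Pfkfb3* and 0.21 for *Pfkfb2*. *Pfkfb2* held 71.4%, 74.2%, 69.4% and 71.3% of the pair, lower in both *Rax* iCKO libraries with a difference of -2.46 percentage points (exact permutation test, two-sided, p = 0.333).

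Aldolase cleaves the sugar bisphosphate. *Aldoa* was at 1598, 2087, 1523 and 1955 FPKM, and its groups overlapped, with mice 3911 and 3914 above 7984 and 7983. *Aldoc*, the brain form that marks astrocytes and Müller glia, was at 674, 443, 469 and 503 FPKM, where control mouse 7984 stood above the other 3. *Aldoa* held 70.3%, 82.5%, 76.4% and 79.5% of the pair, so a library's share of *Aldoa* did not follow genotype. *Tpi1*, the triosephosphate isomerase, ran like *Aldoa* at 1037, 1610.2, 978 and 1355 FPKM. The limma intervals of these abundant genes were wide, from -1.14 to 0.81 for *Tpi1*.

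The next steps earn ATP. *Gapdh*, glyceraldehyde-3-phosphate dehydrogenase, was at 2416, 2691, 2257 and 2322 FPKM, so both *Rax* iCKO libraries were the lower ones, with a log2 fold change of -0.16 (standard error 0.40) that became 0.32 after quantile normalization and -0.078 without control mouse 3911. *Pgk1*, phosphoglycerate kinase, was at 399, 467, 351 and 388 FPKM, a ratio of 0.853 (limma log2 fold change -0.23, standard error 0.26, adjusted p = 1.0). It was -0.03 after quantile normalization, with overlapping groups, and -0.11 without control mouse 3911. *Pgam1*, phosphoglycerate mutase, was between 652 and 777 FPKM, and the extremes were both controls. *Pkm*, pyruvate kinase, was at 1029.7, 1411, 1028 and 1233 FPKM, and mice 7984 and 7983 had nearly the same level. The tables give 1 value per gene symbol, so the splice forms of *Pkm* were not told apart.

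*Eno1* had the largest difference of the 33 in size as deposited. On chromosome 4 (GRCm38.p6, 150236708 to 150248879, plus strand), it had 5582 FPKM in control mouse 7984 and 5163 in 3911, against 3719 in *Rax* iCKO mouse 7983 and 3878 in 3914. The groups did not overlap, and the control mean of 5373 ± 296 (SD, n = 2) stood against 3799 ± 112 (SD, n = 2), a ratio of 0.707. The log2 fold change was -0.50, its standard error of 0.48 was the largest of the 33, and the 95% interval ran from -1.68 to 0.68 (adjusted p = 1.0 in limma). Left out one at a time, the 4 libraries gave values between -0.56 and -0.44. After quantile normalization it was -0.34, and the groups overlapped. *Eno2*, the enolase of neurons, was at 66.3, 78.5, 93.3 and 84.9 FPKM, higher in both *Rax* iCKO libraries (log2 fold change 0.30, standard error 0.21, and 0.18 without control mouse 7984). *Eno1* carried 98.8% and 98.5% of the FPKM of this pair in control and 97.6% and 97.9% in *Rax* iCKO, a difference of -0.960 percentage points (exact permutation test, two-sided, p = 0.333).

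Some reads of *Eno1* cannot be kept apart from those of *Eno1b*, an intronless copy of it. Of the 1776 windows of 100 bases along the *Eno1b* transcript, 63.6% also occur in *Eno1* transcripts, and 0% of those of *Eno2* do. *Eno1b* was listed at 2609.7, 1769, 1379.9 and 1418 FPKM, lower in both *Rax* iCKO libraries as well (limma log2 fold change -0.62, standard error 0.40, adjusted p = 1.0). How the authors' counting split the shared reads is not settled here. With the FPKM of *Eno1b* added to *Eno1*, the share against *Eno2* was 99.2%, 98.9%, 98.2% and 98.4%, in the same order.

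**Figure D3:**
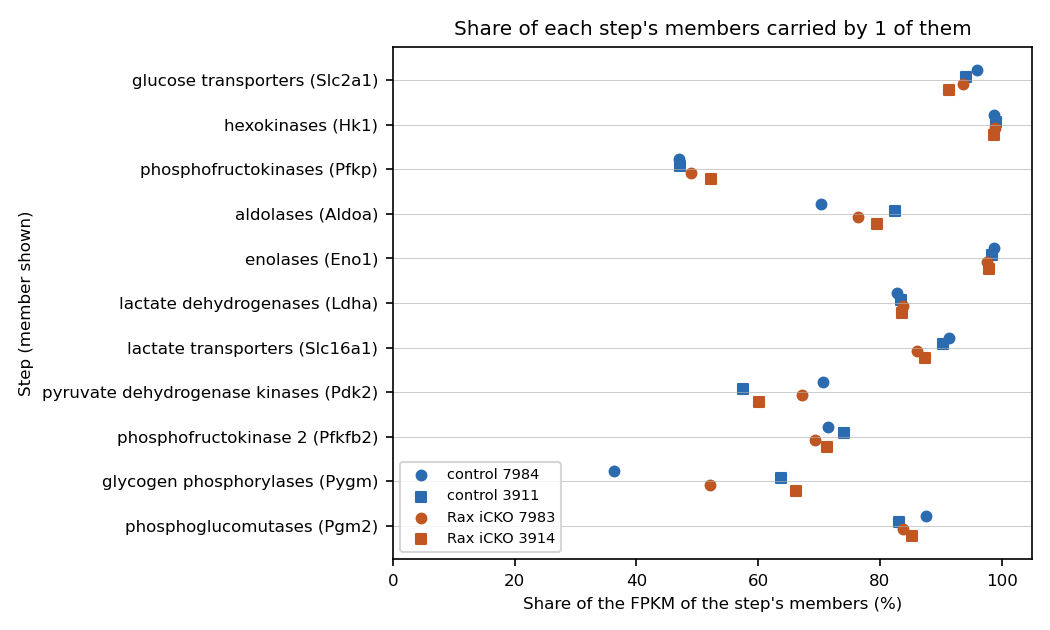
Share of the FPKM of a step's members carried by 1 of them (named in brackets), in percent, for the 11 steps with more than 1 member. Blue stands for control and orange for *Rax* iCKO, circles for mice 7984 and 7983 and squares for mice 3911 and 3914. The named member is the highest in all 4 libraries for 10 of the 11 steps, and *Pygm* in 3 of 4 libraries.

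Lactate dehydrogenase is a tetramer of *Ldha* and *Ldhb* subunits, the first known to favour lactate formation and the second its oxidation. *Ldha* was at 1266, 1398, 964 and 1174 FPKM and *Ldhb* at 261, 278, 186 and 231 FPKM. For each of them the *Rax* iCKO libraries were the lower ones, at ratios of 0.803 and 0.774. The log2 fold changes were -0.32 for *Ldha* (standard error 0.34) and -0.38 for *Ldhb* (standard error 0.24), and limma gave both an adjusted p of 1.0. After quantile normalization they were -0.07 and -0.22, and for *Ldha* the groups then overlapped. Leaving out *Rax* iCKO mouse 7983 gave -0.18 for *Ldha* and -0.22 for *Ldhb*. The balance of the subunits differed little, as *Ldha* held 82.9%, 83.4%, 83.8% and 83.6% of the pair, which is 0.533 percentage points higher in *Rax* iCKO.

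Lactate crosses the membrane through MCT1 and MCT4, encoded by *Slc16a1* and *Slc16a3*. *Slc16a1* was at 155, 114, 118 and 97.2 FPKM, and *Slc16a3* at 14.7, 12.2, 19.1 and 14.1 FPKM. Neither level separated the genotypes, but their balance did. *Slc16a1* made up 91.4% and 90.3% of the pair in control and 86.1% and 87.4% in *Rax* iCKO. As deposited, the difference of -4.11 percentage points in means was the largest of the shares among the 33 members that separated the genotypes. The SDs were 0.724 and 0.891 (n = 2, exact permutation test, two-sided, p = 0.333). After quantile normalization it was -3.02 percentage points, and that of the *Pfkp* share was larger in size at 4.36. *Bsg*, which encodes basigin, the partner that brings MCT1 and MCT4 to the membrane, was at 1781, 1709, 1330.3 and 1376 FPKM. Both *Rax* iCKO libraries were lower, with a mean of 1353 ± 32.5 against 1745 ± 50.6 in control (SD, n = 2), a ratio of 0.775 (limma log2 fold change -0.37, standard error 0.35, adjusted p = 1.0). After quantile normalization the log2 fold change of *Bsg* was -0.11 and its groups overlapped.

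Pyruvate dehydrogenase kinases hold pyruvate back from the mitochondria. *Pdk2* led in each library at 98.7, 64.4, 70.5 and 64.8 FPKM, ahead of *Pdk3* at 28.1, 35.1, 24.5 and 31.6 FPKM. *Pdk1*, a known hypoxia target, was at 12.9, 12.5, 9.90 and 11.4 FPKM and was the only one of the 3 with both *Rax* iCKO libraries below both controls (limma log2 fold change -0.24, standard error 0.22, adjusted p = 1.0), also after quantile normalization. Leaving out mouse 7983 gave -0.14 for *Pdk1*. *Pdk2* was high in control mouse 7984 and alike in the other 3. Its share of the 3 kinases ran from 57.5% to 70.6% and was lower in mice 3911 and 3914 than in mice 7984 and 7983.

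Among the glycogen genes of the 33, *Gbe1*, the branching enzyme, had the smallest p. It lies on chromosome 16 (GRCm38.p6, 70313949 to 70569720, plus strand) and had 187 FPKM in control mouse 7984 and 158 in 3911, against 135 in *Rax* iCKO mouse 7983 and 112 in 3914. The groups did not overlap, the means were 172 ± 20.3 and 123 ± 16.2 (SD, n = 2), and the difference was much the same within both runs of mouse numbers, -0.47 and -0.49 in log2(FPKM + 1). The log2 fold change was -0.48 (standard error 0.23, 95% interval -1.05 to 0.09). Its p of 0.0843 before adjustment was the smallest of the 33, and adjusted over all tested genes by limma it was 1.0. After quantile normalization the log2 fold change was -0.36, and the groups overlapped. In a limma fit blocked by the run of mouse numbers, the p of *Gbe1* before and after adjustment were 0.00355 and 0.117. In that fit 0 members had an adjusted p under 0.05 (0.574% of all tested genes), and 4 members had an unadjusted p under 0.05 (*Eno1*, *Ldhb*, *Slc16a1* and *Gbe1*), where 15.7% of all tested genes did.

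*Gys1*, glycogen synthase, was at 14, 7.33, 13.5 and 9.71 FPKM and followed the mouse numbers rather than genotype. Glycogen phosphorylase, which releases glucose 1-phosphate, was the step without a constant leading form. *Pygb*, the brain form, was at 117, 55.2, 75.3 and 56.0 FPKM, and *Pygm*, the muscle form, at 67.0, 97.1, 81.9 and 110.0 FPKM. *Pygb* was the higher one in control mouse 7984 and *Pygm* in the other 3, with a *Pygm* share of 36.3%, 63.8%, 52.1% and 66.3%. The 2 phosphoglucomutase symbols *Pgm1* and *Pgm2* have been exchanged between annotation releases, and which gene either entry stands for is not settled here. The entry *Pgm2* was at 82.1, 81.7, 71.2 and 75.5 FPKM, lower in both *Rax* iCKO libraries (log2 fold change -0.16, standard error 0.20, and -0.07 with overlapping groups after quantile normalization), and the entry *Pgm1* was between 11.6 and 16.5 FPKM, with both extremes in control.

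Several members followed the run of mouse numbers more closely than genotype, a description made after the values were seen. In mice 3911 and 3914 6 members (*Gpi1*, *Aldoa*, *Tpi1*, *Pkm*, *Pdk3* and *Pygm*) were higher than in both other mice, and 8 (*Slc2a1*, *Pfkl*, *Pfkp*, *Slc16a1*, *Slc16a3*, *Pdk2*, *Pygb* and *Gys1*) were lower. Among all tested genes 29.1% were higher and 26.8% lower in that sense, so no larger part of the 33 members followed the run in either direction. Differences in the same direction within both runs were found for 16 members that were lower in *Rax* iCKO (48.5%, against 31.7% of all tested genes) and 8 that were higher (24.2%, against 30.7%).

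**Figure D4:**
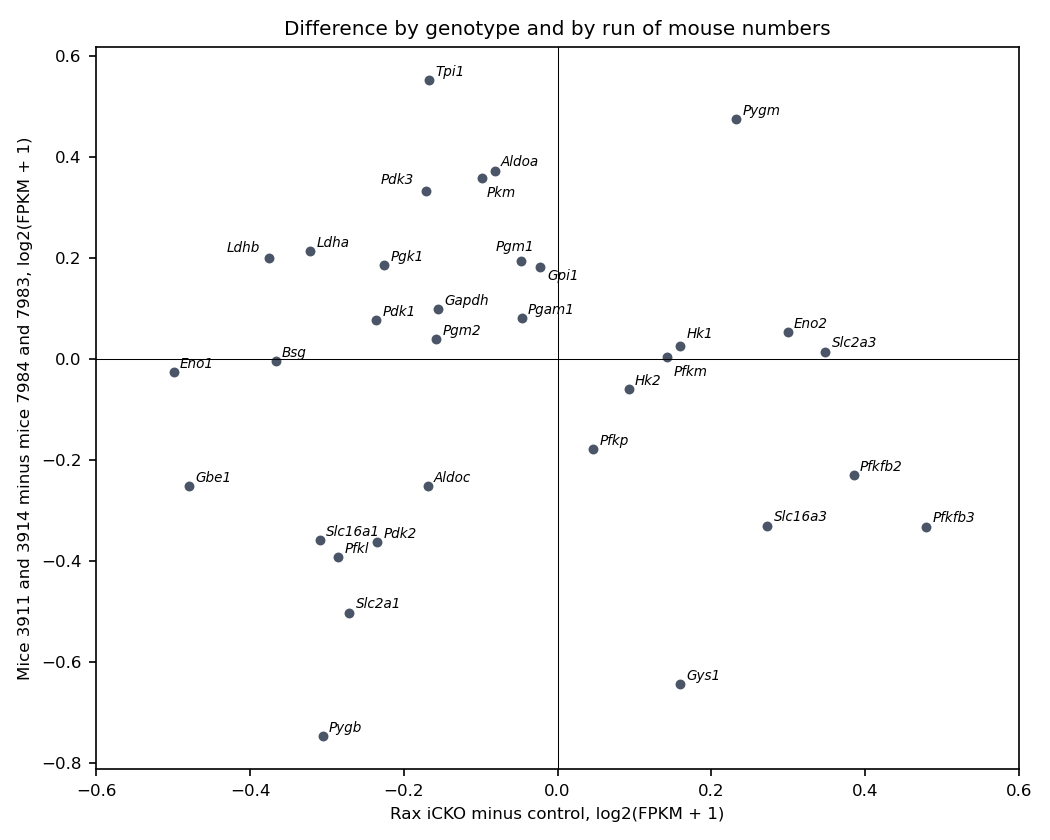
Difference by genotype (horizontal, *Rax* iCKO minus control) against difference by run of mouse numbers (vertical, mice 3911 and 3914 minus mice 7984 and 7983) for the 33 genes, both in log2(FPKM + 1), each point 1 gene. *Eno1* and *Bsg* differ by genotype and hardly by run, *Tpi1*, *Aldoa* and *Pkm* more by run than by genotype, and *Pygb* and *Gys1* have the lowest values by run.

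The sums of some cell type markers were ordered by genotype or by run, as some members were. The summed FPKM of 20 Müller glial markers was 25283, 21059, 16798 and 17178, with 10 of the 20 lower in both *Rax* iCKO libraries (14.1% of all tested genes) and 0 higher (15.4%). *Rlbp1*, whose promoter drives the Cre, was at 2616, 2159, 1292 and 1560.2 FPKM. The 16 rod markers summed to 2928, 2969, 2133 and 1860.2 FPKM, with 13 of the 16 lower in both *Rax* iCKO libraries (again beside 14.1%) and 0 higher. The 11 bipolar cell markers summed to 4033, 9348, 5454 and 7948 FPKM, higher in mice 3911 and 3914, and much of it was *Pcp2* at 2071, 6515, 2727 and 4846 FPKM. Counted by gene, 5 of the 11 were higher in both *Rax* iCKO libraries (15.4% of all tested genes) and 0 lower, with a median log2 fold change of 0.31, and 6 were higher in mice 3911 and 3914 (29.1%). RNA of neuronal markers was thus present in the sorted cells, the Müller glial and rod sums were lower in both *Rax* iCKO libraries as *Eno1*, *Ldha* and *Bsg* were, and the bipolar sum followed the run as *Tpi1*, *Aldoa* and *Pkm* did. No marker passed the test (adjusted p from limma), and the part of these cell types in the members' values was not tested.

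Other marker lists gave lower sums. Astrocyte markers summed to 57.1, 48.5, 33.1 and 33.1 FPKM and those of the pigment epithelium to 6.42, 8.16, 9.64 and 11.7 FPKM, with 7 of its 9 genes under 1. Cone markers summed to between 149 and 206 FPKM, amacrine and horizontal cell markers to between 51.7 and 83.5, ganglion cell markers to between 6.38 and 15.4, and red blood cell markers to between 0.316 and 14.7 FPKM. Microglial markers summed to 58.8, 59.2, 101 and 13.6 FPKM, and endothelial and pericyte markers to between 241 and 492 FPKM, with 8 of the 10 under 1. The ganglion cell gene *Pou4f2* was listed at 0 in 3 of the 4 libraries and at 0.0352 FPKM in the other. In bulk RNA of sorted cells, fewer cells of a type and less RNA per cell cannot be told apart.

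**Figure D5:**
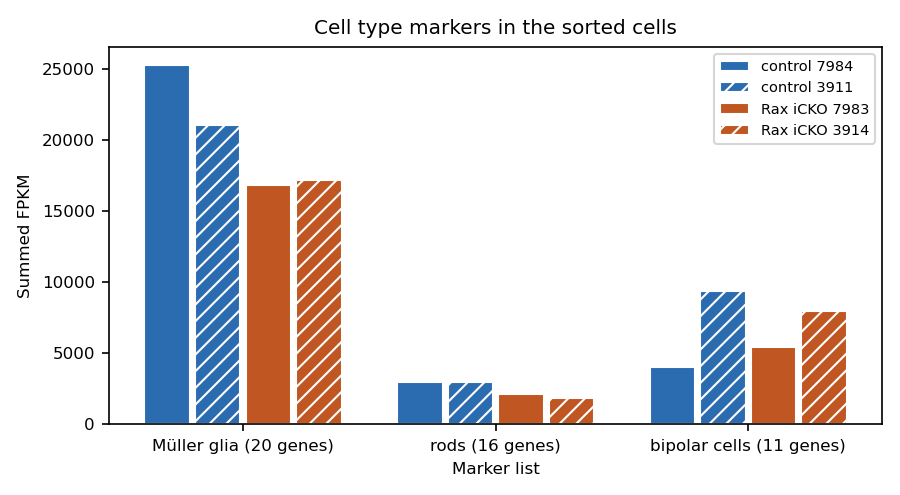
Summed FPKM of the marker genes of Müller glia (20 genes), rods (16) and bipolar cells (11) in each library, as bars from 0 (blue for control, orange for *Rax* iCKO, hatched for mice 3911 and 3914). The Müller glial and rod sums are lower in both *Rax* iCKO libraries, and the bipolar sum is higher in mice 3911 and 3914, at 9348 and 7948 FPKM.

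Of the 11 steps with several members, 10 had the same leading form in all 4 libraries. The share of that form among the members of its step separated the genotypes in 6 of the 10, lower in *Rax* iCKO in 4 (*Slc2a1*, *Eno1*, *Slc16a1* and *Pfkfb2*) and higher in 2 (*Pfkp* and *Ldha*). By level, 14.1% of all tested genes were lower and 15.4% higher in both *Rax* iCKO libraries, and no such background was made for shares. With 2 against 2 mice, any separated share has an exact permutation p of 0.333, the smallest possible. After adjustment over the 10 steps, the exact permutation p of each of the 6 was 0.556. The differences of these 6 kept their sign after quantile normalization and without any 1 library, but the groups of the *Slc2a1* share overlapped after quantile normalization (exact permutation p = 0.667). Without 1 library at a time they ran from -3.70 to -1.42 percentage points for *Slc2a1* (-1.42 without *Rax* iCKO mouse 3914 and -1.65 without control mouse 7984). The range was -3.83 to -1.09 for *Pfkfb2* (-1.09 without control mouse 3911, -1.52 without *Rax* iCKO mouse 7983 and -3.83 without control mouse 7984). It was 1.92 to 5.10 for *Pfkp* (1.92 without *Rax* iCKO mouse 3914) and 0.278 to 0.788 for *Ldha* (0.278 without control mouse 7984), whose difference was 1.54 after quantile normalization. The ranges were -1.12 to -0.798 for *Eno1* and -4.74 to -3.48 for *Slc16a1*. The shares also depend on which forms are counted. With further forms of the steps added, the share of *Slc16a1* still separated the genotypes, while those of *Slc2a1*, *Eno1* (with *Eno1b* counted as a separate enolase) and *Pfkfb2* overlapped. That of *Ldha* could not change, as the only form added, *Ldhc*, was listed at 0 FPKM in all 4 libraries. No further form of phosphofructokinase was listed. The differences were then -3.40 percentage points for *Slc2a1*, 1.21 for *Eno1* and 1.61 for *Pfkfb2*.

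Further forms of the same steps gave no call either. Of 32 other isoenzymes, transporters and regulators listed, 31 were in the tables under those symbols and 16 reached a mean of 1 FPKM. By limma 0 of the 16 had an adjusted p under 0.05 and 1 had an unadjusted p under 0.05, and 5 were lower and 1 higher in both *Rax* iCKO libraries (31.2% and 6.25%, against 14.1% and 15.4% of all tested genes). The 1 gene was *Hkdc1*, a further hexokinase, at 55.2, 38.6, 29.3 and 31.0 FPKM (log2 fold change -0.60, standard error 0.24, unadjusted p = 0.0484 and adjusted p = 1.0 from limma). It stood well above *Hk2* and below *Hk1*. *Pdp1*, the phosphatase that reverses the pyruvate dehydrogenase kinases, was the 1 gene higher in both, at 6.96, 9.72, 9.84 and 11.3 FPKM.

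Other glycogen genes gave a mixed picture. Of 25 listed, 20 were tested, 0 had an unadjusted p under 0.05 in limma, and 6 were lower and 5 higher in both *Rax* iCKO libraries (30.0% and 25.0%, against 14.1% and 15.4% of all tested genes). *Gyg*, the glycogenin that primes new glycogen, was the most abundant of them at 118, 117, 87.8 and 102 FPKM. *Ugp2*, which makes the UDP-glucose that synthase uses, was at 44.3, 39.6, 33.6 and 23.5 FPKM (log2 fold change -0.56, standard error 0.24). *Pygl*, the liver form of phosphorylase, was at 31.5, 25.7, 22.3 and 16.7 FPKM (log2 fold change -0.53, standard error 0.24). *Ppp1r3d*, a subunit that brings a phosphatase to glycogen, was at 5.75, 3.06, 2.49 and 2.07 FPKM (log2 fold change -0.68, standard error 0.34). Each of these 4 was lower in both *Rax* iCKO libraries, as *Gbe1* was, and limma gave all 4 an adjusted p of 1.0. Before adjustment, the limma p of *Ugp2* (0.0615) and of *Pygl* (0.0687) was below that of *Gbe1*.

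Many glycolytic genes are known targets of the hypoxia-inducible factors, which bind a core of ACGTG, and Rax as a homeodomain protein binds sites with TAATT. Both were searched, on either strand, in the 250 bases before each start in the RefSeq promoter table of GRCm38.p6, which holds 31 of the 33 members with 47 starts. ACGTG was in 22 of the 47 windows (46.8%), from 18 members, where 16.6% of all 32851 windows held it. TAATT was in 5 of the 47 (10.6%), from 4 members, against 25.0% of all windows. TAATT holds only A and T, and the windows were not matched for base composition. The part of base composition in these percentages was not tested. The paper predicted its Rax sites in a longer stretch before *Socs3*, and bases further than 250 from a start were not searched here. Shown are 3 windows of members whose groups did not overlap as deposited. These are the window with the most matches to ACGTG, of *Ldha* (1 of its 2 starts, chr7:46845554-46845803, plus strand, 5 matches), that of *Hk2* (chr6:82774455-82774704, minus strand), the first by symbol of the 4 members with 2 matches in a window (*Hk2*, *Pfkfb2*, *Pfkfb3* and *Pgk1*), and the window of *Gbe1* (chr16:70313699-70313948, plus strand), which has none and had the largest difference below 0 of those with 1 start. Each ends at the base before the start, and capitals mark ACGTG and its reverse complement CACGT. A match to both strands at one place gives CACGTG, which is also an E-box, the site of other factors.
Ldha: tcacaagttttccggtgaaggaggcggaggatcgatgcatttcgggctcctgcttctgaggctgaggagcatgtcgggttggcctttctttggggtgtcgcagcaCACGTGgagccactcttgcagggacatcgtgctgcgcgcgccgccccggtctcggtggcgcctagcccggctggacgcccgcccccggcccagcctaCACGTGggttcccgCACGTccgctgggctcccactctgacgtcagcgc
Hk2: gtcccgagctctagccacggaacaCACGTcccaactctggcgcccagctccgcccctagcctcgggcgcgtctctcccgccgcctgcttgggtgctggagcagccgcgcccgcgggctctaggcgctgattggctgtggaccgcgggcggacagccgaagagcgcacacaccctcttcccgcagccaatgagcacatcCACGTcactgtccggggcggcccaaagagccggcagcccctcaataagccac
Gbe1: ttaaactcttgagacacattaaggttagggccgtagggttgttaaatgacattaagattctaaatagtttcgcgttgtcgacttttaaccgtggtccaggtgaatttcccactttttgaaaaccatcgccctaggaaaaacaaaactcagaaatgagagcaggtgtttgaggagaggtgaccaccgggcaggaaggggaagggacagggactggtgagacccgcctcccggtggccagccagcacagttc
*Ldha* was lower and *Hk2* higher in both *Rax* iCKO libraries as deposited, at log2 fold changes of -0.32 and 0.09, and the windows of both hold the core. *Eno1*, *Gapdh* and *Ldhb* have no match in their windows and were lower in both as deposited, *Gapdh* being higher after quantile normalization. G and C made up 67.2% of the *Ldha* window, 69.6% of that of *Hk2* and 48.8% of that of *Gbe1*. A match is a description of these letters and not of binding.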

How the data were processed

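RNA-seq was performed on mTFP-positive cells sorted from 4 mouse retinas, 1 library per mouse. Single-end reads were mapped by the authors to mm10 (TopHat2 2.1.1, Bowtie2 2.2.8 and SAMtools 0.1.18 per the submitters' processing notes, other versions in the paper's methods) and 1 FPKM value per gene symbol and library, from the Cufflinks suite (Cuffdiff 2.2.1 in the notes), was deposited. As FPKM are relative to a library's own total, a change in abundant genes shifts all others. Use of the strand is not given in the sources used here.

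FPKM were compared as deposited, on log2(FPKM + 1), with limma 3.58.1 (R 4.3.3; lmFit, eBayes with trend) over 12363 genes (mean FPKM of 1 or more), adjusted by Benjamini-Hochberg over all of them. Fold changes on this scale are understated for low genes. Shares of a step were compared by exact permutation tests over libraries. The relative depth came from the steps of low FPKM values over 474 genes. Groups were taken from the sample labels. Whether these mice were littermates is not given. Deviations from group means correlated at 0.503 within a run of mouse numbers. With 2 mice per group the deviations of a gene are exact opposites, so the value across runs (-0.503) is fixed by the first and is no second observation. It does not settle whether the mice were paired, so the block is an alternative.

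Named were all 33 members, and of each further list the most abundant gene and up to 3 with the largest difference among those whose groups did not overlap. The members, lists and tests were chosen with earlier results of these data known. The limma fit was run on simulated data with known changes, and the shares of isoenzymes were not simulated. It called 1 of 50 genes with a log2 change of 0.5, 8 of 50 with 1 and 95 of 100 with 2 in size. Changes as small as those of the members were thus rarely called. Protein sequences were not used here.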

Additional observations from a re-analysis of the deposited data

How the results depend on the processing

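With 4 libraries, 8 alternatives were run, and 0 members had an adjusted p under 0.05 in limma under any of them or without any 1 library. Of the 33 differences, 7 changed sign with 4 libraries, all after quantile normalization, to 0.15 for Gpi1, 0.26 for Aldoa, 0.081 for Aldoc, 0.046 for Tpi1, 0.32 for Gapdh, 0.18 for Pgam1 and 0.17 for Pkm, 14 changed sign when 1 library was left out, and 18 did so under none. With further forms of a step counted, an alternative added after seeing the data, the difference in share turned to 10.4 percentage points for Hk1, 1.21 for Eno1 and 1.61 for Pfkfb2. Quantile normalization also turned the differences in share of Hk1, Pdk2 and Pgm2 to 0.0804, 0.687 and 0.289 percentage points, left 2 members lower and 11 higher in both Rax iCKO libraries, and moved the median over the members to 0.081. Equal medians moved it to -0.18. The labels number no replicates, so the paired fit was blocked by the run of mouse numbers. There Rax was called at -0.82 (adjusted p = 0.0223 from limma), 71 genes in all passed, and 4 members had an unadjusted p under 0.05; the block changed no other call on the members. The count of all genes past the adjusted p was 3 as reported, 6 with equal medians, 0 at a mean FPKM of at least 5, 31 with no filter and 0 with no filter among symbols above 0 in a library, an alternative added after seeing the data. With no filter, 1 member had an unadjusted p under 0.05. The cause of these differences was not tested.

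Without 1 library at a time, the difference ran from -0.61 to 0.067 for Slc2a1, -0.14 to 0.092 for Gpi1, -0.10 to 0.20 for Pfkp, -0.27 to 0.11 for Aldoa, -0.47 to 0.13 for Aldoc, -0.48 to 0.15 for Tpi1, -0.17 to 0.079 for Pgam1, -0.32 to 0.13 for Pkm, -0.54 to 0.069 for Pdk2, -0.35 to 0.0070 for Pdk3, -0.84 to 0.23 for Pygb, -0.032 to 0.50 for Pygm, -0.26 to 0.58 for Gys1 and -0.28 to 0.19 for Pgm1. The difference in share ran from -0.156 to 0.152 percentage points for Hk1, -4.50 to 7.66 for Aldoa, -6.97 to 6.19 for Pdk2 and -3.04 to 1.35 for Pgm2. The count of all genes past the adjusted p ran from 17 to 20, that of members with an unadjusted p under 0.05 from 0 to 1 (without control mouse 3911), the number lower in Rax iCKO from 12 to 17 (17 without control mouse 3911, 16 without 7984), the number higher from 7 to 13 (13 without control mouse 7984), and the median over the members from -0.11 to -0.078. With 1 library left in a group, its spread was assumed to be that of the other. Depth was 1.35 times that of mouse 7983 in control mouse 7984, and 2 mice per group limit every comparison.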

Other observations

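Routes next to glycolysis gave no call in limma either. Of the 27 genes of pyruvate entry and the tricarboxylic acid cycle, all 27 were tested, with a median log2 fold change of -0.01. In both *Rax* iCKO libraries 2 were lower and 1 higher (7.41% and 3.70%, against 14.1% and 15.4% of all tested genes), and 21 of the 27 were higher in mice 3911 and 3914 than in both other mice (29.1% of all tested genes). *Mdh1*, the cytosolic malate dehydrogenase, was the most abundant, with 329 FPKM in control mouse 7984 and 581 in 3911, against 322 in *Rax* iCKO mouse 7983 and 468 in 3914. *Suclg2*, a subunit of succinate-CoA ligase, was at 12.1 and 8.95 against 8.83 and 6.91 FPKM, *Idh2* at 85.0 and 83.4 against 75.4 and 78.8 FPKM, and *Dlat*, a subunit of pyruvate dehydrogenase, at 21.0 and 23.8 against 24.8 and 25.0 FPKM.

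Of the 8 genes of the pentose phosphate pathway, which branches off at glucose 6-phosphate and yields NADPH, 7 were tested, with a median log2 fold change of -0.23, 3 lower in both *Rax* iCKO libraries (42.9%, against 14.1% of all tested genes) and 0 higher. These were *H6pd* (2.07 and 1.97 against 1.65 and 0.850 FPKM), *Pgd* (57.8 and 56.6 against 44.8 and 51.2 FPKM) and *Tkt* (80.9 and 89.9 against 69.5 and 79.1 FPKM). *Taldo1*, the most abundant, was at 199.6 and 315 against 173 and 205 FPKM, and its groups overlapped. Of 22 hypoxia factors and targets outside glycolysis, 20 were tested, with a median of 0.05, 2 lower and 4 higher, where 14.1% of all tested genes were lower and 15.4% higher. *Bnip3*, a mitochondrial protein of the hypoxia response, was the most abundant at 203 and 278 against 195 and 234 FPKM. *P4ha2*, a collagen prolyl hydroxylase, was at 10.4 and 6.37 against 12.2 and 14.5 FPKM (log2 fold change 0.64, standard error 0.29). *Adm*, which encodes adrenomedullin, was at 1.53 and 3.47 against 1.44 and 1.09 FPKM, and *Ddit4* at 11.9 and 11.6 against 9.92 and 6.22 FPKM. Of 8 gluconeogenesis genes 3 were tested, with 0 lower and 0 higher in both *Rax* iCKO libraries, and the most abundant, *G6pc3*, a ubiquitous glucose 6-phosphatase, was at 50.8 and 38.8 against 40.5 and 40.1 FPKM. No gene of these 4 lists had an adjusted p under 0.05 or an unadjusted p under 0.05 in limma.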
